A study of Mus musculus with 6 samples.

Results

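Homing receptors and integrins were read in leukemias of mouse T-cell precursors (T-ALL) as 9 genes chosen by gene symbol out of 19057 genes with a probe of their own on the array. They are the chemokine receptors Cxcr4, Cxcr5, Ccr7 and Ccr9, the sphingosine 1-phosphate (S1P) receptor S1pr1, the selectin ligand Selplg, and the integrin chains Itgal, Itga4 and Itgb7. Every probe with one of these symbols was used, 17 in all. The leukemias of both groups were of the genotype ΔE-NOTCH1 Rosa26 Cre-ERT2 Hes1flox/flox: an activated NOTCH1 was delivered by retrovirus to lineage-depleted bone marrow cells, Hes1 carried loxP sites on both alleles, and a tamoxifen-activated Cre was expressed from the Rosa26 locus, which is active in most cell types. They had been grown in lethally irradiated NRG mice, a strain that lacks its own T, B and NK cells but keeps myeloid and stromal cells. The WT group was 3 samples given ethanol for 36 hours, and the KO group was 3 samples given 4-hydroxy-tamoxifen for 36 hours, which deletes Hes1, the gene of a transcriptional repressor that NOTCH1 activates. Since drug treatment always came with Hes1 deletion, loss of Hes1, Cre activity and the drug cannot be told apart in any difference below. The labels name both culture and treatment of recipient mice without saying which gave the RNA. The sample titles call the replicates biological. The labels give no age and no separate source for each replicate, so the p-values cover only the variation among these 6 samples, which may be partly technical.

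Lymphocytes leave the blood in steps. They roll on selectins through sugar-bearing ligands such as PSGL-1, the product of Selplg, then chemokine receptors coupled to Gi proteins switch integrins to their binding state, and integrins hold the cell on ICAM and VCAM family ligands. S1P receptor 1 works the other way and guides lymphocytes out of thymus and lymph nodes into blood and lymph. In T-ALL, CXCR4 is known for holding leukemia cells beside CXCL12-producing stroma in the marrow, and CCR7 for entry into the central nervous system in mouse models driven by NOTCH1.

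The promoters of Itgb7 and Cxcr4 are shown because these genes had non-overlapping groups in opposite directions and their sequences were in the table used here. The RefSeq promoter table (GRCm38.p6) held 4 of the 9 members: Ccr9, Cxcr4, Itga4 and Itgb7. Each sequence is the 250 bases before the annotated start, 5′ to 3′ on the gene's own strand, at chr15:102231936-102232185 (minus strand) for Itgb7 and chr1:128592300-128592549 (minus strand) for Cxcr4. Capitals mark matches to any of 3 motifs searched on both strands, CACNAG (the N-box that HES proteins are known to bind), CACGNG (E-box and class C site forms) and TGGGAA (the core of the RBPJ site). The letters CACGAG would count for both of the first motifs.
Itgb7: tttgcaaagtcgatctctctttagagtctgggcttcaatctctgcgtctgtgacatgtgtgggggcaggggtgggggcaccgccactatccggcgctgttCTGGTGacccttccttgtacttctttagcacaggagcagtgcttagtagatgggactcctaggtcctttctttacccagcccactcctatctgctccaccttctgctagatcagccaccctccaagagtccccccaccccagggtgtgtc
Cxcr4: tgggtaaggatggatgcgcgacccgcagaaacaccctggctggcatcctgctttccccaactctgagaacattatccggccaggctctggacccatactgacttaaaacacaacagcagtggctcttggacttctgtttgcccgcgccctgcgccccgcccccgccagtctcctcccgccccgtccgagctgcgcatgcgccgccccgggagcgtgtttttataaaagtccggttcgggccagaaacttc
Itgb7 had 1 match, to CACNAG on the opposite strand, which begins 150 bases before the start. Ccr9 also had 1 match to CACNAG, 149 bases before its start, and Cxcr4 and Itga4 had 0 matches to the 3 motifs. Of all 32851 promoters in the table, 36.7% held CACNAG, 23.5% held CACGNG and 21.6% held TGGGAA in the same window. A match is a description of letters and says nothing of binding here.

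RNA was read on Illumina bead arrays after amplification from 10 ng per sample. The mean signal per probe ran from 703 to 713 intensity units in WT and from 520 to 687 in KO, with KO replicate 1 the dimmest and the least like the others (mean r 0.981 across features, against 0.990 to 0.991). Hes1 had a normalised log2 intensity of 10.98 ± 0.16 in WT and 4.54 ± 0.11 in KO (SD, n = 3 each) and was detected on 0 of the 3 KO arrays, at least 53.5-fold lower. Of 18 T-lineage markers with a probe, 14 were tested, among them Cd3d, Cd3e, Cd3g, Thy1 and Ptcra, while Cd5, Cd8a and Rag2 were detected on no array and Cd4 on 2. Markers of other cells were mostly dim. Of 8 B-lineage markers 2 were tested and Cd79b and Pax5 were among 4 detected on no array, with a summed normalised signal of 259.7 to 289.7 in WT and 262 to 303 in KO. Of 11 myeloid markers 0 were tested and 8, Lyz2 and Mpo among them, were detected on no array. The rest were detected on at most 2 arrays. Their sums of 273 to 296 in WT and 299.7 to 338 in KO did not overlap, but are mostly signal at background. Of 7 NK markers only Prf1 was tested (sums of 493 to 1072 in WT and 894 to 2769 in KO), and 4, Ncr1 among them, were detected on no array. Prf1 was not dim, at 9.09 ± 0.71 in WT and 10.33 ± 0.93 in KO (log2, SD, n = 3 each). Its log2 change was 1.24, with overlapping groups and an adjusted p of 0.501 in limma. Of 11 stromal and endothelial markers 4 were tested, and Col1a1, Col3a1, Sparc, Dcn and Lum were detected on no array. The sums of that list were 899 to 1079 in WT and 1155 to 1493 in KO and did not overlap either. Pecam1 weighed most in these sums, at 9.40 ± 0.18 in WT and 9.93 ± 0.25 in KO (log2, SD, n = 3 each). The other tested genes, Kdr, Tek and Pdgfrb, were dim, with group means from 5.15 to 5.39. Of the 4 tested, 2 were higher and 2 lower in KO, with log2 changes of 0.24 for Tek, -0.13 for Kdr and -0.006 for Pdgfrb. Tek was detected on 0 WT and 3 KO arrays, so it met the detection filter only through KO, and its change is a value near background. The part of such cells in the results below was not tested. In bulk RNA, a change in the number of cells that carry a transcript and a change per cell cannot be told apart.

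In the comparison of KO with WT, which asks how homing genes differ when Hes1 is deleted, Cxcr5 and Itgb7 had higher values in every KO array than in any WT array, and Cxcr4 had lower values. Cxcr5 was 1.49-fold and Itgb7 1.25-fold higher in KO, and Cxcr4 was 1.17-fold lower. Selplg, Itgal and Ccr7 had overlapping groups, and Ccr9, S1pr1 and Itga4 were at or near background. Testing required a detection p under 0.05 on 3 or more of the 6 arrays, which 6 of the 9 genes and 9 of the 17 probes met. Of these 6 genes, 0 were below an adjusted p of 0.05 by limma's moderated test over all 11241 features, where 7 features or 0.0623% passed. At an unadjusted p under 0.05 there were 2 of 6 members, both higher in KO, beside 9.27% of all features, 5% higher and 4.27% lower. In either direction, that count was 1 with median scaling (Cxcr4, lower in KO) and with a replicate block (Cxcr5). It was also 1, Cxcr5, without WT replicate 1, WT replicate 2, KO replicate 1 or KO replicate 2. It was 3, with Cxcr4 added, with no background correction or with the authors' log2 values. With array weights it was 2, Cxcr5 and Cxcr4. The groups did not overlap in 3 of 6 members, 2 above and 1 below, beside 16.2% of all features, 8.49% above and 7.69% below. The median log2 change, KO minus WT, was 0.18 over the 6 members and 0.0026 over all features. It was -0.03 with median scaling, where the median over all features was -0.17, and 4 higher and 2 lower values became 3 and 3. It was 0.06 without KO replicate 1, and with the stricter detection filter, a p under 0.01 on all arrays, it was 0.26.

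**Figure D1:**
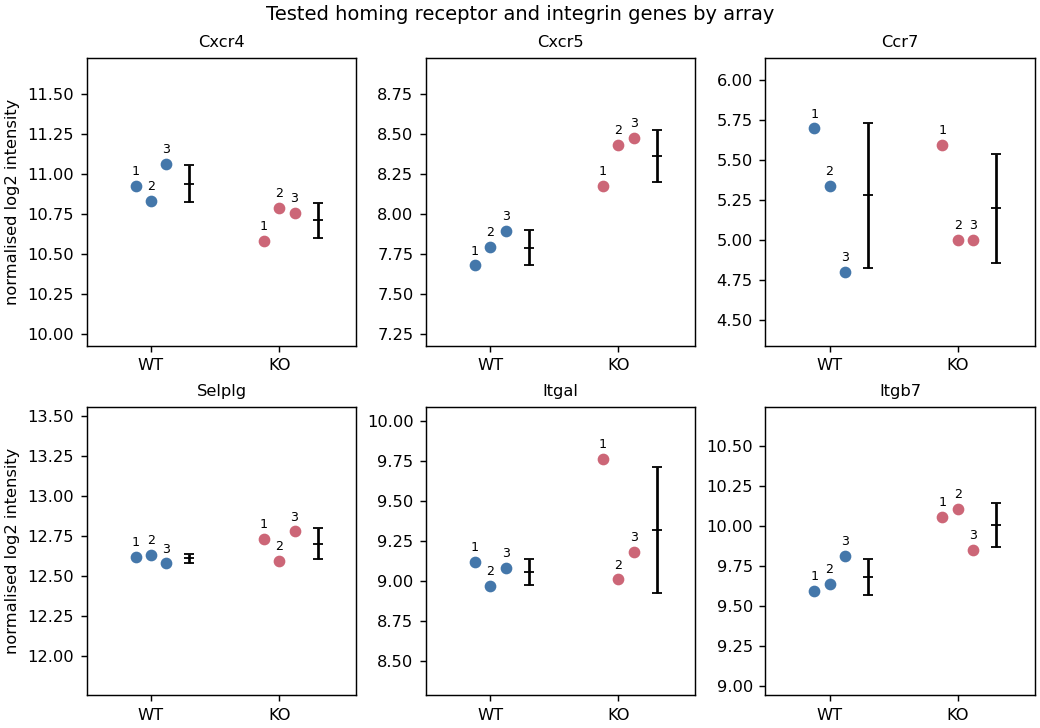
Normalised log2 intensity of the 6 tested genes on each array, with WT in blue and KO in red, replicate numbers above the points, and the group mean ± SD (n = 3) as black bars. Each panel spans the same number of log2 units around its own mean. The groups separate for Cxcr4, Cxcr5 and Itgb7, and the Itgal value of KO replicate 1 (9.76) stands above the other 5.

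Among the chemokine receptors, Cxcr5 showed the largest difference of the tested members. CXCR5 is the receptor for CXCL13 and is known for guiding B cells and follicular helper T cells into B-cell follicles. Its brightest probe (ILMN_2990494) measured 7.68, 7.80 and 7.90 in WT and 8.18, 8.43 and 8.48 in KO, in normalised log2 intensity, with values here and below in the order of replicates 1, 2 and 3. All 3 KO arrays lay above all 3 WT arrays. The log2 change was 0.57 ± 0.13 (SE; 95% confidence interval 0.28 to 0.87), and it did not pass, with an adjusted p of 0.236 in limma. Before normalisation the same probe read 349.5, 368.7 and 382.2 intensity units in WT and 332.5, 444 and 514.2 in KO, so there the dim KO replicate 1 overlapped the WT arrays.

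The other Cxcr5 probes lay in the same direction and differed in size. ILMN_2990502 measured 7.49, 7.68 and 7.85 in WT and 8.46, 8.45 and 8.39 in KO, a log2 change of 0.76, and ILMN_1219316 measured 5.24, 5.58 and 5.63 in WT and 5.85, 5.68 and 6.05 in KO, a change of 0.38. The last was dim and was detected on 5 of 6 arrays. In each of the 3 probes the groups did not overlap. With each probe as a feature of its own, an alternative chosen after these values were seen, the adjusted p of the 3 probes in limma ran from 0.154 to 0.560, over 16287 probes. Cxcr5 kept its direction in all 17 processing alternatives, with a log2 change between 0.39 and 0.67. Its adjusted p passed only with array weights (0.0375) and reached 0.597 without WT replicate 3. With median scaling the change was 0.39, which lay 0.56 above the median of all features. The B-lineage markers beside it gave overlapping sums, as above. Of the 2 tested, Ebf1 measured 5.22 ± 0.05 in WT and 5.44 ± 0.21 in KO (log2, SD, n = 3 each) without overlap, was detected on 0 WT and 3 KO arrays, and had an adjusted p of 0.647 in limma. Vpreb1 measured 6.16 ± 0.17 and 5.89 ± 0.46, with overlapping groups and an adjusted p of 0.730 in limma. The part of B-lineage cells in the Cxcr5 values was not tested. The gene of the CXCR5 ligand, Cxcl13, was detected on no array.

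**Figure D2:**
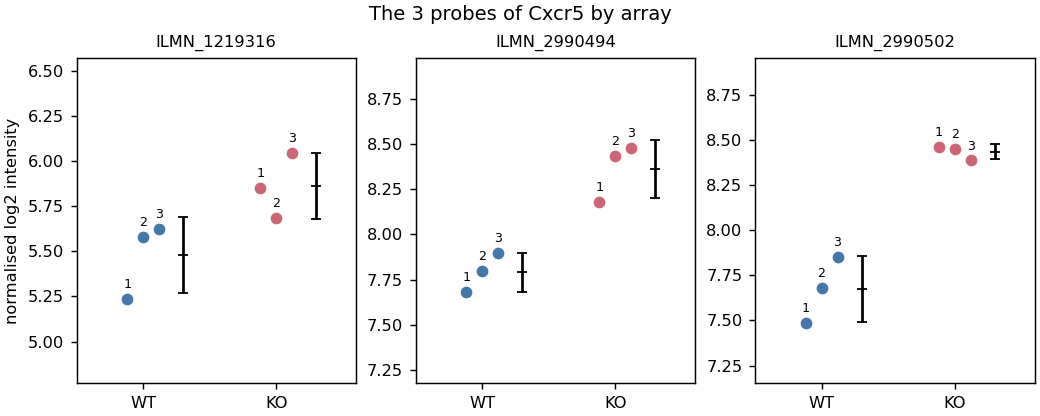
Normalised log2 intensity of the 3 Cxcr5 probes on each array (WT blue, KO red, replicate numbers above the points, black bars mean ± SD, n = 3). In each probe the 3 KO points lie above the 3 WT points, and the gap is widest for ILMN_2990502 (0.76).

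Cxcr4, the receptor for CXCL12, went the other way. It measured 10.93, 10.83 and 11.06 in WT and 10.58, 10.79 and 10.76 in KO. The highest KO value and the lowest WT value were close but did not cross. The log2 change was -0.23 ± 0.12 (SE; 95% confidence interval -0.50 to 0.04), with an adjusted p of 0.609 in limma. Before normalisation the probe read 2280.6, 2114.7 and 2433.6 intensity units in WT and 1252, 1771 and 1975 in KO. Over the 17 alternatives the change ran from -0.44 to -0.17, with the first from median scaling, where it lay -0.27 from the median of all features.

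Ccr7, the receptor for CCL19 and CCL21, which guides naive and central memory T cells to lymph nodes, lay at the edge of detection. Its single probe was detected on 2 WT arrays and 1 KO array. It measured 5.70, 5.34 and 4.80 in WT and 5.59, 5.00 and 5.00 in KO. The groups overlapped, and the spread within WT (SD 0.45) was larger than the change of -0.08 ± 0.26 (SE, log2; adjusted p 0.933 in limma). Over the fits without 1 array the change ran from -0.32 without WT replicate 3 to 0.13 without WT replicate 1, so its direction rested on single arrays. Ccr9, the receptor for CCL25, which draws T cells to the gut and thymocytes within the thymus, was detected on 0 arrays. Its probe read 128.7, 128.4 and 139.7 intensity units in WT and 126.9, 137.6 and 142.9 in KO, which is below the lowest detected signal of each array (145.2 to 169.1).

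S1pr1, the lymphocyte exit receptor, was also detected on 0 arrays. Its single probe read 144.5, 144.3 and 124.7 intensity units in WT and 121.6, 127.1 and 135.7 in KO. No level or change above background can be given for Ccr9 or S1pr1 at this signal, and a probe that is not above background does not show that the transcript is missing.

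Itga4, the alpha 4 chain that pairs with beta 1 and beta 7 to bind VCAM-1 and MAdCAM-1, had 6 probes, and 5 of them were detected on 0 arrays. The remaining one, ILMN_1232028, was detected on KO replicate 1 only, and read 153.7, 164.9 and 150.7 intensity units in WT and 145.7, 150.1 and 167.2 in KO. Across the 8 probes of Ccr9, S1pr1 and Itga4, signals ran from 0.737 to 1.003 times the lowest detected signal of the same array. Without the detection filter, where the brightest probe of each gene was fitted, the log2 changes were 0.11 for Ccr9, -0.13 for S1pr1 and 0.11 for Itga4, with adjusted p of 0.809, 0.848 and 0.909 in limma. These values are at background and are not read as changes in the genes.

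**Figure D3:**
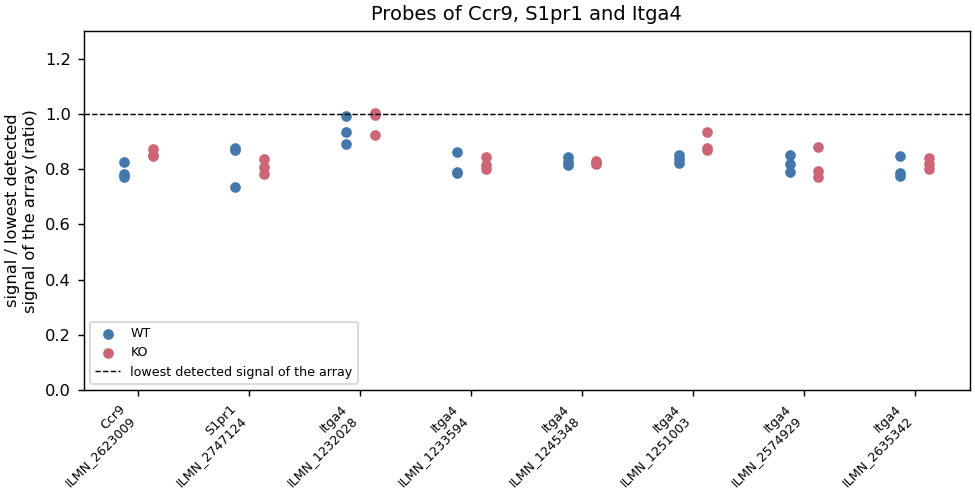
Signal of each probe of Ccr9, S1pr1 and Itga4 on each array, divided by the lowest signal that had a detection p under 0.05 on that array (dashed line at 1; WT blue, KO red). The 7 probes detected on no array sit between 0.737 and 0.934, and only Itga4 probe ILMN_1232028 touches the line.

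Itgb7, the beta 7 chain of the gut-homing integrin alpha 4 beta 7 and of alpha E beta 7, measured 9.60, 9.64 and 9.81 in WT and 10.06, 10.11 and 9.85 in KO. All KO values lay above all WT values, by the least for KO replicate 3 and WT replicate 3. The log2 change was 0.32 ± 0.12 (SE; 95% confidence interval 0.04 to 0.61), with an adjusted p of 0.477 in limma. Before normalisation it read 974.9, 996.2 and 1090.4 intensity units in WT and 909.5, 1144.4 and 1115.9 in KO, where the groups overlapped through KO replicate 1. The change kept its direction in all 17 alternatives, from 0.12 with median scaling to 0.40, and with median scaling it lay 0.29 above the median of all features. Neither alpha partner could be tested beside it, since Itga4 was at background and Itgae was detected on at most 1 array by any of its 6 probes.

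Itgal encodes the alpha L chain of LFA-1, which binds ICAM-1 and ICAM-2. It measured 9.12, 8.97 and 9.08 in WT and 9.76, 9.01 and 9.18 in KO. KO replicate 1 stood apart, and the other KO values lay within or just above the WT range. Before normalisation the Itgal probe read 737.6, 673.7 and 707.9 intensity units in WT and 760.9, 604.8 and 755.5 in KO. There KO replicate 1 lay close to KO replicate 3. The log2 change was 0.26 ± 0.19 (SE; 95% confidence interval -0.19 to 0.72; adjusted p 0.692 in limma), and without KO replicate 1 it was 0.04. The beta chain of LFA-1, Itgb2, measured 7.02, 6.62 and 6.80 in WT and 7.12, 7.22 and 7.07 in KO. Its groups did not overlap, and its change was 0.33 ± 0.13 (SE, log2; adjusted p 0.501 in limma), and 0.16 with no background correction.

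Selplg was close to level between the groups. Its brightest probe (ILMN_2820893) measured 12.62, 12.63 and 12.58 in WT and 12.73, 12.60 and 12.78 in KO, with overlapping groups and a log2 change of 0.09 ± 0.10 (SE; 95% confidence interval -0.15 to 0.34; adjusted p 0.790 in limma). The other probe (ILMN_2585233) measured 11.37, 11.65 and 11.37 in WT and 11.60, 11.56 and 11.29 in KO, a change of 0.02. With median scaling the change of the gene turned to -0.14, which lay 0.03 above the median of all features.

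**Figure D4:**
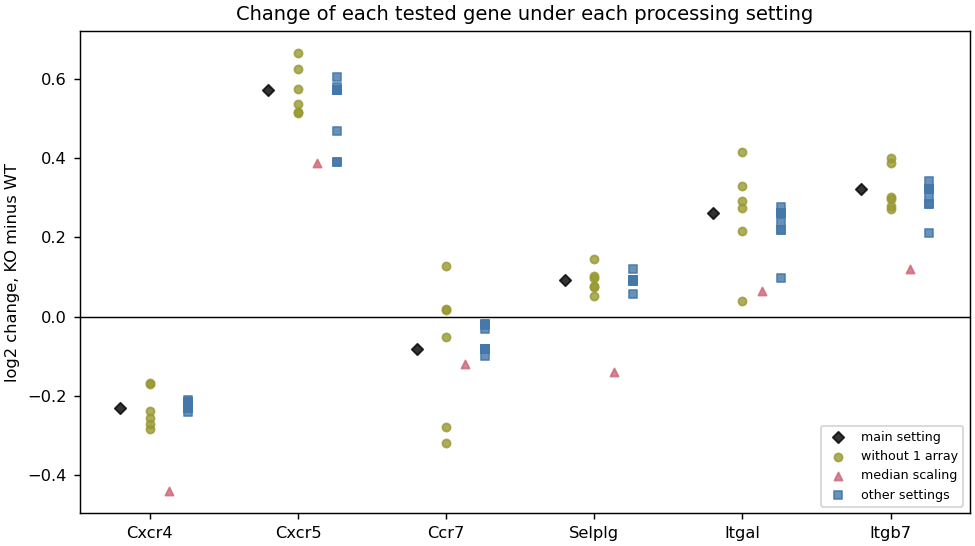
Log2 change, KO minus WT, of the 6 tested genes under the main setting (black diamonds), without each array in turn (olive circles), with median scaling (red triangles) and under the other settings (blue squares). Cxcr5 and Itgb7 stay above 0 and Cxcr4 below 0 throughout, Ccr7 crosses 0 when single arrays are left out, and Selplg crosses 0 with median scaling (-0.14). The median over all features was -0.17 with median scaling.

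The surrounding pathway was read through 8 lists of 146 genes, of which 142 had a probe and 63 were tested. Of these 63, 0 passed the adjusted threshold in limma, and at an unadjusted p under 0.05 there were 5 higher and 1 lower in KO, beside the 5% higher and 4.27% lower of all features. Most other chemokine receptors were at background: of 18 with a probe, 14 were detected on no array, Ccr2, Ccr6, Cxcr3 and Cxcr6 among them, and 2 were tested. Ccrl2, an atypical receptor that binds chemerin, measured 0.40 ± 0.12 (log2 change ± SE), and Ackr4, a scavenger of CCL19, CCL21 and CCL25, measured -0.15 ± 0.16. With no background correction, Ccrl2 was 0.15. Of 16 chemokine ligands 14 were detected on no array and 2 were tested. The CXCR4 ligand gene Cxcl12 measured -0.41 ± 0.20 (-0.14 with no background correction) and was dim, detected on 2 WT arrays and 1 KO array. The CCR9 ligand gene Ccl25 measured 0.21 ± 0.10, and its other probes measured 0.25 and -0.09.

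In the S1P and egress list, 7 of 13 genes were tested, with 5 higher and 2 lower and a median log2 change of 0.04, which was -0.16 with median scaling. In that setting the median over all features was itself -0.17. Values with median scaling here and in the paragraphs below are to be read beside it. The S1P lyase gene Sgpl1 measured 0.48 ± 0.15 (log2 change ± SE; second probe 0.38), the S1P kinase gene Sphk2 0.20 ± 0.11, and S1pr4, a leukocyte S1P receptor, -0.39 ± 0.18. With no background correction, Sgpl1 was 0.28 and S1pr4 -0.18. Cd69, whose product removes S1P receptor 1 from the cell surface, measured 0.12 ± 0.25 (-0.16 without KO replicate 3), and Klf2, a transcription factor known to drive S1pr1 in T cells, was detected on no array. Of 15 selectin and selectin ligand genes with a probe, 8 were tested, with 1 higher and 7 lower, a median of -0.04 (-0.23 with median scaling), and 0 at an unadjusted p under 0.05. Values were -0.31 ± 0.18 for St3gal4 and -0.20 ± 0.18 for Galnt1, which add sugars to selectin ligands, -0.27 ± 0.17 for the adhesion receptor gene Cd44, and 0.06 ± 0.13 for Tpst2, which sulphates PSGL-1. Tpst2 was -0.15 with median scaling. Without KO replicate 1, Galnt1 was -0.04 and Cd44 -0.14. Cd44 was dim, detected on 2 WT arrays and 1 KO array, and was -0.08 with no background correction.

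Among the other integrin chains, 5 of 23 with a probe were tested, 4 higher and 1 lower, with a median log2 change of 0.03 that was -0.02 with median scaling. Beside Itgb2, Itgav measured 0.32 ± 0.22 and Itga9 0.03 ± 0.12 (log2 change ± SE). Leaving out KO replicate 1 gave 0.09 for Itgav, leaving out KO replicate 2 gave 0.55, and its second probe measured -0.12. Itgb1, the usual partner of alpha 4, measured -0.25 ± 0.20 (-0.07 without KO replicate 1), and its second probe -0.51. The LFA-1 ligand genes Icam1 and Icam2 were the 2 tested of 8 integrin ligand genes. They measured 0.36 ± 0.12 and 0.24 ± 0.11, each with KO above WT without overlap, as in 8.49% of all features. Their median of 0.30 was 0.10 with median scaling. Vcam1 and Madcam1, ligands of the alpha 4 integrins, were detected on no array.

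The genes that switch integrins on or restrain them were mostly expressed: 19 of 22 were tested, with 11 higher and 8 lower. Their median log2 change was 0.05, and -0.17 with median scaling. Restraining genes in this list include Cytip, Itgb1bp1 and Sharpin, so the split gives no direction of integrin activation. Rasgrp1, which activates Ras in T cells, measured -0.30 ± 0.11 (log2 change ± SE), and its second probe -0.76. The kinase gene Stk4, needed for LFA-1 function in T cells, measured 0.26 ± 0.11. Tln2, a talin, measured 0.47 ± 0.21 (0.73 without KO replicate 2, and 0.14 with no background correction). Its WT mean of 5.36 was close to the lowest detected log2 values of the WT arrays (5.25 to 5.33). Fermt3, the leukocyte kindlin, measured 0.28 ± 0.13. Among 18 tested genes of chemokine signalling and migration, 7 were higher and 11 lower, with a median of -0.03 (-0.22 with median scaling) and 0 at an unadjusted p under 0.05. The exchange factor gene Vav1 measured 0.21 ± 0.10 (-0.01 with median scaling), Dock8 0.18 ± 0.13, Rgs19 0.21 ± 0.15 (0.06 without KO replicate 2) and the receptor kinase gene Grk5 -0.14 ± 0.11. The adjusted p of the named pathway genes in limma lay between 0.374 for Ccrl2 and 0.946 for Itga9. Beside Icam1 and Icam2, KO lay above WT without overlap for Ccrl2, Ccl25, Sgpl1, Sphk2, Itgb2, Stk4, Fermt3 and Vav1. KO lay below WT without overlap for S1pr4 and Rasgrp1, and for the second probes of Rasgrp1 and Itgb1. Most of these genes were named for their small p. Over all features, 8.49% lay above and 7.69% below without overlap.

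**Figure D5:**
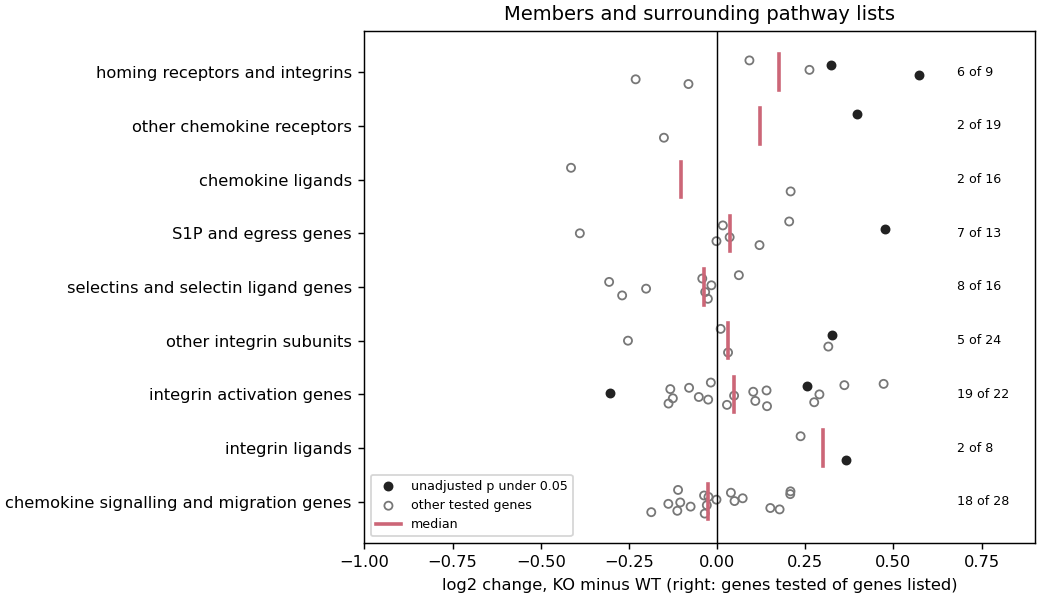
Log2 change, KO minus WT, of each tested gene in the homing set and in 8 surrounding lists; filled points had an unadjusted p under 0.05 in limma, red bars are list medians, and the numbers at right give genes tested of genes listed. Medians lie between -0.10 for chemokine ligands and 0.30 for integrin ligands, each of these from 2 genes.

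As a description of pattern, the tested genes most like each member over the 6 arrays were found by Pearson's r of normalised log2 values. For Cxcr5 they were Acadm (r 0.998) and Nck2 (0.995), for Cxcr4 Lrrfip2 (0.997) and Ptpa (0.985), and for Itgb7 Dnajb2 (0.986) and Tnxb (0.985). For Itgal they were C2cd3 (0.996) and Ovgp1 (0.995), for Selplg Kptn (0.989) and Bcr (0.983), and for Ccr7 Pfn2 (0.980) and Donson (0.964). These are the best of 8836 named genes over 6 arrays that share 1 normalisation.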

How the data were processed

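Total RNA of 6 samples, 3 WT and 3 KO, was amplified and biotin-labelled, per the labels' protocols, and groups came from the sample titles. The deposited table gave, per the file headers, an intensity and a detection p-value for each of 45281 probes on each array. The intensities were neither background-subtracted nor normalised, judged from their values (all at least 101.9). A second deposited table held the authors' log2 values, which equalled quantile-normalised log2 intensities within 5.0e-05 (median 7.20). The sources used here name neither the scanner software nor a genome build.

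Intensities were processed in R 4.3.3 by neqc of limma 3.58.1 (background from detection p-values, offset 16, quantile normalisation, log2), so a general shift of signal between groups would not be seen. Probes with 1 symbol numbered 34885, with several 18 and with none 10378. Probes with detection p under 0.05 on at least 3 arrays were kept (16287), and the brightest stood for each gene, giving 11241 features. KO and WT were compared with lmFit and eBayes without covariates, with Benjamini-Hochberg adjustment over all features. The steps were tested on simulated data. The number of arrays limits the precision.

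The members and lists were chosen with earlier results of these data known. Named were all members, Hes1, up to 4 genes per list by smallest p, chosen partner genes, and the 2 genes most like each member. Marker genes and genes at background named as examples were chosen after their values were seen. Alternatives changed background correction, normalisation, filter, probe choice, replicate block, array weights and variance prior, used the authors' log2 values, or left out each array.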

Additional observations from a re-analysis of the deposited data

How the results depend on the processing

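The count of members past the adjusted threshold was 0 in 16 of 17 processing alternatives and with each probe alone, and 1 with array weights (Cxcr5), and the count of pathway genes was 0 in all 17. Over all named genes the count moved from 7 to 31 with no background correction, 26 with normexp, 20 with median scaling, 31 with the authors' log2 values, 15 with detection p under 0.01 on all arrays, 89 with array weights and 40 with a trended robust prior, and it ran from 2 to 9 without single arrays. The cause was not tested. The replicate numbers are not stated to pair samples, and same-numbered samples did not deviate together (r -0.10, -0.27 and 0.15 over 11241 features). With a replicate block the count was 2, no member passed (0), and Cxcr5 had an adjusted p of 0.420 in limma.

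Of 555 single-gene values over 33 genes, 541 kept direction and side of the threshold and 13 reversed. With median scaling, Selplg was -0.14, Cd69 -0.038, Tpst2 -0.15, Itga9 -0.18 and Vav1 -0.013, where the median over all features was -0.17. With array weights Ackr4 was 0.0066 and Itgb1 0.016. Without single arrays Ccr7 ran from -0.32 to 0.13, Cd69 from -0.16 to 0.37, Tpst2 from -0.028 to 0.13 and Itga9 from -0.038 to 0.11. Signals at background limit Ccr9, S1pr1 and Itga4.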
